A study of Bos taurus with 6 samples.

Results

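The arrays described here are hybridisations of bovine lymph tissue against itself, the columns of the deposited table whose title starts with lymph. They are 3 of the 6 arrays of the first test of a bovine array of 19200 spotted complementary DNAs, called features here, and the other 3 are adrenal gland against adrenal gland. Both channels of every array held total RNA of the same Bos taurus tissue, with no treatment, strain, sex or age given in the labels, and the kind of lymph tissue is not named. The column of lymph 3 was identical to that of adrenal 2 in 19200 of 19200 rows, so its tissue is unknown. Lymph 1 and lymph 2 therefore served as the lymph arrays, and the column listed as lymph 3 is shown apart. The labels do not say whether these are separate animals or repeated labellings of 1 RNA, so a p-value here reflects array-to-array spread only, and that spread may be technical.

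Lymphoid tissue gathers T cells, B cells and antigen-presenting cells on a stroma whose chemokines guide them, and lymphocytes enter it through specialised vessels. In a self-against-self hybridisation the 2 dyes compete for each spot with RNA of the same kind, so the log ratio of a feature is not a level of expression. The labelled tissue could not be checked against its marker genes for that reason. The question such arrays address is how far a log ratio lies from 0, and how reproducibly, with no difference between the samples. The sources used here give neither the base of the logarithm nor the dye of the numerator. Values are in deposited log units, each array centred on its own median, and no statement on which channel was brighter is made.

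Lymph 1 had longer tails than lymph 2 and the column listed as lymph 3. It held 365 features beyond 0.5 log units of 0 (1.92% of its 19023 values), against 74 (0.385% of 19198) on lymph 2 and 36 (0.188% of 19194) on the column listed as lymph 3. Adrenal 1 and 3 had 0.563% and 1.03% of their values that far out, and adrenal 1 reached a higher maximum (1.57) than lymph 1 (1.54). Beyond 0.25 log units, 1788 features lay above 0 and 1196 below on lymph 1, and 1234 above and 624 below on lymph 2. Beyond 1 log unit the balance on lymph 1 was the other way, with 9 features above 0 and 21 below, and lymph 2 had 0 such features. The centres of the arrays were more alike than their tails: log ratios had an SD of 0.194 and 0.154, whereas the SD estimated from the median absolute deviation was 0.158 and 0.152. The column listed as lymph 3 was narrower on both measures, at 0.0926 and 0.0694. The mean SD of the 2 lymph arrays was 0.174 ± 0.0285 (SD, n = 2) and that of adrenal 1 and 3 was 0.164 ± 0.0238 (n = 2), a gap within the spread between arrays (exact two-sided permutation test, p = 0.667, where 0.333 is the smallest possible).

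**Figure D1:**
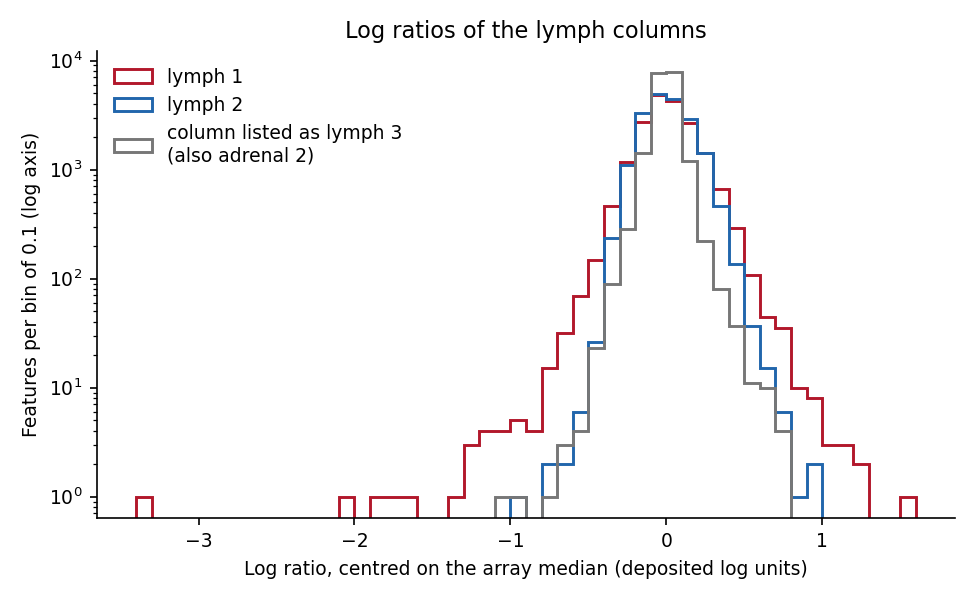
Histogram of log ratios, in deposited log units on the horizontal axis and features per bin of 0.1 on a logarithmic vertical axis, for lymph 1, lymph 2 and the column listed as lymph 3 (also listed as adrenal 2), over the 18941 features tested. Lymph 1 reaches from -3.32 to 1.54, lymph 2 has its lowest tested feature, EIF3E, at -0.94 and its highest at 0.91, and the third column is the narrowest.

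The 12 named features farthest from 0 on lymph 1 lay within 0.26 log units of 0 on lymph 2. CBFB, the partner subunit of the RUNX transcription factors, was lowest on lymph 1 at -3.32 and stood at 0.19 on lymph 2. ABR stood at -2.03 and 0.12. RHOC stood at -1.76 and 0.21. The cell cycle and transcription kinase gene CDK11B stood at -1.70 and 0.26. HERPUD1, a component of endoplasmic reticulum-associated degradation, stood at -1.38 and -0.029. Above 0, the peroxisomal import gene PEX14 stood at 1.27 and -0.092, and CPT1B, the muscle form of carnitine palmitoyltransferase 1, at 1.18 and 0.0026. Lymph 2 shared none of these 7 departures, and over all 30 features beyond 1 log unit on lymph 1 the values on lymph 2 ran from -0.16 to 0.26.

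Further spots of the same genes gave a second reading on lymph 1. ABR, RHOC and TMCO4 each had 1 other feature, at -0.018, -0.048 and -0.045, and that of CPT1B stood at 0.018. CENPV had 4 others, between -0.20 and 0.21, and EPN2, an endocytic adaptor, had 2, between -0.070 and 0.035, where the outlying feature stood at -1.24. None of these 10 other features of 6 genes shared the outlying value, and CBFB, CDK11B, HERPUD1, PEX14 and FBXO16 had no other feature. LOC511425 stood at -1.20 with 2 others at 0.052 and 0.11 on the same array.

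Lymph 2 had distant features too, several of them read differently on lymph 1. The lowest was WDR83OS at -0.98, a feature with no value on lymph 1. EIF3E, a subunit of translation initiation factor 3, stood at -0.94 on lymph 2 and 0.026 on lymph 1. The endothelial receptor gene ACVRL1 stood at 0.82 and 0.073. These were chosen after their values were seen. Of the 61 features above 0.5 on lymph 2, 25 lay above 0 on lymph 1 and 36 below. Of the 213 features above 0.5 on lymph 1, 130 lay above 0 on lymph 2 and 83 below, and of the 152 below -0.5 on lymph 1, 67 lay below 0 on lymph 2 and 85 above.

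Across all features the 2 lymph arrays were weakly alike. Pearson's r between lymph 1 and lymph 2 was 0.0768 over 19023 features, with 53.8% of features on the same side of 0. These are descriptions across features of shared print layout and array normalisation, not replicates. The r was 0.158 for lymph 2 with adrenal 1, 0.0914 for lymph 2 with adrenal 3, 0.115 for lymph 1 with adrenal 1 and 0.0562 for lymph 1 with adrenal 3. The column listed as lymph 3 had r of 0.0326 with lymph 1 and 0.0671 with lymph 2. At 0.25 log units, 152 features lay beyond the threshold above 0 on both lymph arrays and 43 below 0 on both, against 59 and 86 beyond it on opposite sides. At 0.5 log units 4 lay above on both arrays, 0 below on both, and 1 on opposite sides.

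**Figure D2:**
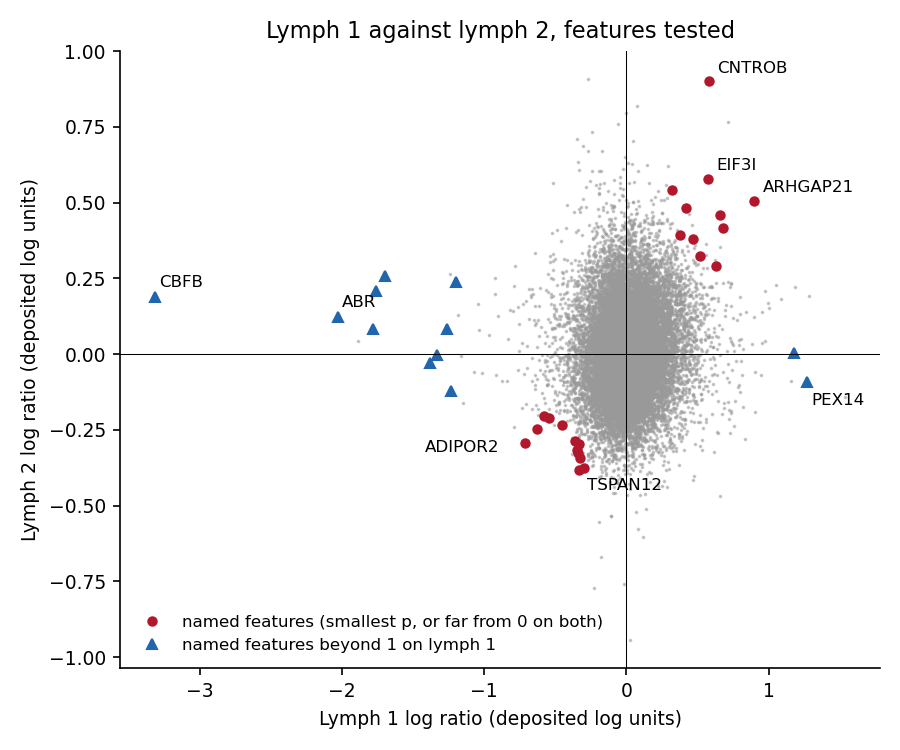
Log ratio on lymph 1 (horizontal axis) against lymph 2 (vertical axis), both in deposited log units and on different scales, for the 18941 features tested. Red points are named features with the smallest p or the largest value shared by both arrays. Blue triangles are the named features farthest beyond 1 log unit on lymph 1, which lie within 0.26 log units of 0 on lymph 2.

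Tested against 0 with limma over lymph 1 and lymph 2, with adrenal 1 and 3 adding to the estimate of the spread, 0 of 18941 features (0.00%) passed after Benjamini-Hochberg adjustment, the lowest adjusted value being 0.400. Before adjustment 1462 features (7.72%) had p under 0.05, against 947 that chance would give. Of these, 985 (5.20%) had a mean above 0 and 477 (2.52%) a mean below it. The share above 0 among features at that level moved with the processing. It was 67.4% here, 61.2% for values not centred and 55.6% for an ordinary test in place of limma's moderated one. The side of 0 over all features was nearly even, with 9616 above and 9325 below. Leaving out lymph 2 gave 5 features that passed, CBFB, ABR, CDK11B, RHOC and unnamed feature 6546, whose values are those of lymph 1 alone. Leaving out lymph 1, adrenal 1 or adrenal 3 gave 0, and the number at an unadjusted p under 0.05 was 1949 without lymph 2 and 991 without lymph 1.

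The features with the smallest p lay far from 0 on both lymph arrays, which is what a small p selects, and they are given as values because none passed adjustment. CNTROB, a centriole protein gene, had the highest mean among features of 1 named gene, with 0.58 on lymph 1 and 0.90 on lymph 2 against 0.094 and 0.32 on the adrenal arrays and -0.018 on the column listed as lymph 3. ARHGAP21 stood at 0.90 and 0.51 on the lymph arrays, and at 0.017 and 0.024 on the adrenal arrays. The translation initiation gene EIF3I stood at 0.57 and 0.58, against 0.016 and 0.12. For these 3 genes both lymph arrays lay above both adrenal arrays, as did 16.6% of all features tested, while 17.6% lay below. The limma means were 0.74 ± 0.11, 0.70 ± 0.11 and 0.58 ± 0.087 (moderated SE, n = 2, adjusted p = 0.400 each).

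Next in the order of p came 7 more named features. KCND1, a voltage-gated potassium channel gene, had 0.66 and 0.46, with 0.14 and 0.21 on the adrenal arrays. MOGS, which trims the first glucose from N-glycans, stood at 0.68 and 0.41, with -0.074 and 0.048. MIA2, which acts in cargo export from the endoplasmic reticulum, stood at 0.47 and 0.38, with 0.17 and 0.14. SYS1, a Golgi membrane protein gene, stood at 0.63 and 0.29, with 0.24 and 0.38. DAGLB, a diacylglycerol lipase gene, stood at 0.52 and 0.32 with 0.30 and 0.19 on the adrenal arrays. ARPC5, a subunit of the actin-nucleating Arp2/3 complex, stood at 0.38 and 0.39 with 0.31 and 0.20. THYN1 stood at 0.32 and 0.54 with 0.46 and 0.27. All 7 but MOGS were above 0 on both adrenal arrays as well. GPR173, an orphan G protein-coupled receptor gene, was added by its value on both arrays, at 0.42 and 0.48.

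Below 0 the largest shared values were smaller. ADIPOR2, an adiponectin receptor gene, stood at -0.71 and -0.29, and SEC23A, a coat protein gene of vesicles leaving the endoplasmic reticulum, at -0.63 and -0.25. For both, lymph 1 lay more than 0.25 log units below lymph 2. TSPAN12, a tetraspanin that acts with Frizzled-4, stood at -0.33 and -0.38 with 0.096 and 0.13 on the adrenal arrays. The matrix gene NPNT stood at -0.30 and -0.38, the ribosome assembly gene GRWD1 at -0.33 and -0.34, and CRELD1 at -0.34 and -0.33. REV1, a polymerase of translesion DNA synthesis, stood at -0.36 and -0.29, opposite in sign to its adrenal values of 0.086 and 0.13. SLC17A9, the vesicular nucleotide transporter, stood at -0.46 and -0.24, the drug efflux pump gene ABCB1 at -0.55 and -0.21, and SPATA24 at -0.58 and -0.20. RNF187 at -0.35 and -0.32 and MEGF6 at -0.33 and -0.30 were added by their value on both arrays. ADIPOR2 had the lowest mean of these, -0.50 ± 0.11 (moderated SE, n = 2, limma adjusted p = 0.611).

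**Figure D3:**
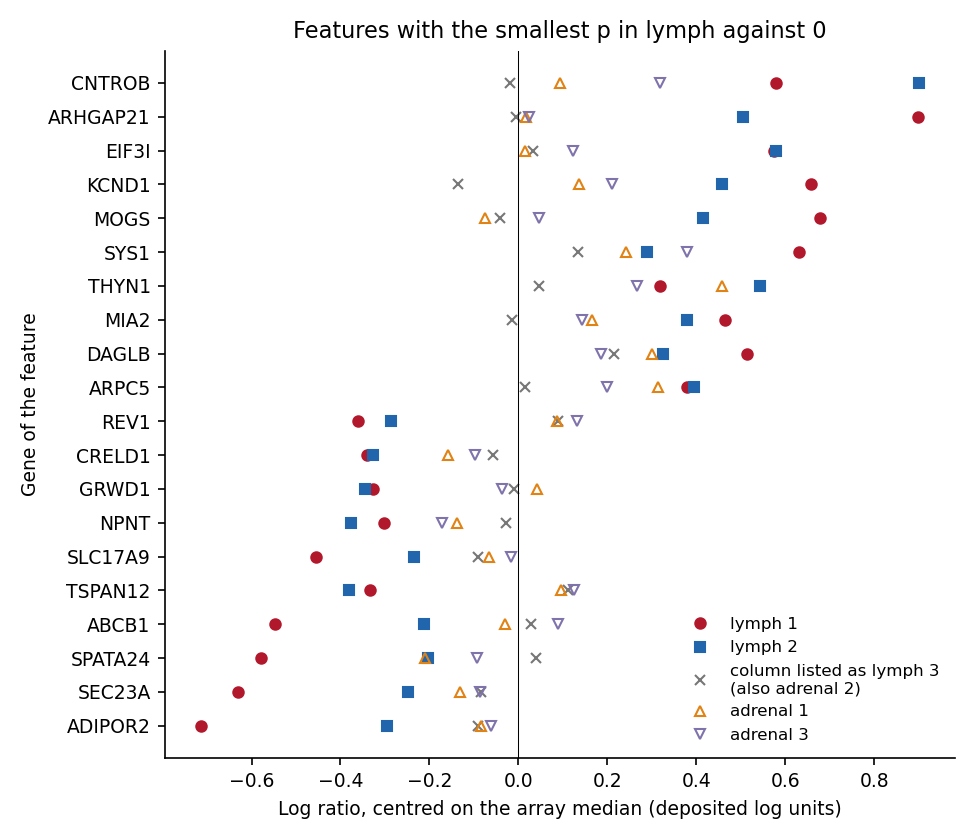
Log ratios, in deposited log units, of the 10 features above 0 and the 10 below 0 with the smallest unadjusted p in lymph against 0, by gene (vertical axis) and array (symbols). Circles and squares are lymph 1 and lymph 2, crosses the column listed as lymph 3, and open triangles adrenal 1 and 3, most of which lie nearer to 0.

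Features with a small p in lymph were read again on the other arrays, of which adrenal 1 and 3 had entered the fit only through the spread, and on other spots of the same genes. Of the 985 features above 0 at an unadjusted p under 0.05, 66.5% were above 0 on adrenal 1, 62.8% on adrenal 3 and 59.5% on the column listed as lymph 3, where 49.8%, 49.8% and 49.8% of all features tested were. Of the 477 features below 0, 38.2%, 42.1% and 45.6% were above 0 on these arrays. Among the 985, 364, of 350 genes, had other features of the same gene. Those were counted once for each of the 364, so some repeat, and of the 541 readings 269 (49.7%) had a lymph mean above 0. For 172 of the 477 features below 0, of 167 genes, 124 of 252 readings counted in the same way (49.2%) were above 0, against 50.8% of all features tested.

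EIF3I had 4 features, of which the 1 named above had a lymph mean of 0.58 and the others 0.031, 0.17 and 0.013. The second feature of ARHGAP21 had a lymph mean of -0.063, that of KCND1 0.013, that of MOGS -0.072 and that of REV1 0.049. DAGLB and ADIPOR2 had another feature on the same side at an unadjusted p under 0.05, at 0.25 and -0.27. Among the 23 genes named by p or by shared value, 18 had other features, and 15 of these 25 features lay on the same side of 0 as the named one. Over all genes with at least 2 features, the SD among features of 1 gene was 0.191 on lymph 1 and 0.151 on lymph 2, beside 0.191 and 0.150 over the same features without regard to gene. The intraclass correlation, the share of variance that lies between genes, was -0.00064 on lymph 1 (3130 genes) and -0.0059 on lymph 2 (3166 genes), and 0.0272 on the column listed as lymph 3. On adrenal 1 and 3 it was 0.0055 and -0.0212.

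Empty cells and distant values of lymph 1 were concentrated in 1 stretch of feature numbers. The stretch from feature 8001 to 11600 held 3600 of the 19200 features (18.8%) and 131 of the 177 empty cells of lymph 1. It also held 148 of its 365 values beyond 0.5 log units and 16 of its 30 beyond 1 log unit. Inside it 4.27% of lymph 1 values were beyond 0.5 log units, and outside it 1.4%. On lymph 2 these shares were 0.417% and 0.378%, on adrenal 1 1.06% and 0.449%, and on adrenal 3 1.20% and 0.992%. Adrenal 1 also had 29 of its 34 empty cells there, and adrenal 3 had 14 of 85. CBFB, CNTROB and EIF3I are among the named genes with a feature in this stretch, where 10.1% of 3451 tested features had an unadjusted p under 0.05 (258 above 0 and 91 below), against 7.19% of the other 15490. The stretch was chosen after its values were seen. Where the features lie on the slide is not known here.

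The 177 features without a value on lymph 1 included 120 of 1 named gene. On lymph 2, 175 of them had a value, of which 146 were above 0 and 29 below, with a median of 0.12 (quartiles 0.028 and 0.21) against -0.0011 for the features lymph 1 did measure. Their median was 0.074 on adrenal 1, 0.17 on adrenal 3 and 0.036 on the column listed as lymph 3, all above that of the other features. These features entered no test in which lymph 1 was needed.

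A second stretch, also chosen after its values were seen, stood out on lymph 2. Of the 200 features numbered 501 to 700, 180 (90.0%) were above 0 on lymph 2, with a median of 0.19. On lymph 1, 69 (34.5%) were above 0, with a median of -0.045. The medians of 4 consecutive runs of 50 features within it were 0.21, 0.099, 0.28 and 0.18 on lymph 2, and the runs before and after it had 0.017 and -0.036. On the column listed as lymph 3, 76.9% were above 0 with a median of 0.034, and on adrenal 1 and 3 41.0% and 54.0%. Only 2 of the 200 features carry a gene name, and the first named feature of the array is number 697. Lymph 1 and lymph 2 had medians on opposite sides of 0 here, and 16 of the 200 (8.0%, against 7.72% of all features) reached an unadjusted p under 0.05, all 16 above 0.

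Along the array, medians of consecutive features moved little. In 48 runs of 400 feature numbers, run medians lay within 0.03 log units of 0 in 42 runs on each of lymph 1 and lymph 2. The lowest run was that of features 15601 to 16000 on lymph 1 (-0.051), lymph 2 (-0.071) and adrenal 1 (-0.054). Run medians of lymph 1 and lymph 2 had a Pearson r of 0.299 over 48 runs and 0.592 over 47 runs without that of features 401 to 800, which holds the raised stretch of lymph 2. With adrenal 1 the r over 48 runs was 0.652 for lymph 1 and 0.359 for lymph 2, and over the same 47 runs 0.630 and 0.667. With adrenal 3 it was 0.397 and 0.438 over 48 runs, and 0.401 and 0.586 over 47. These are descriptions over runs of the same spots.

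**Figure D4:**
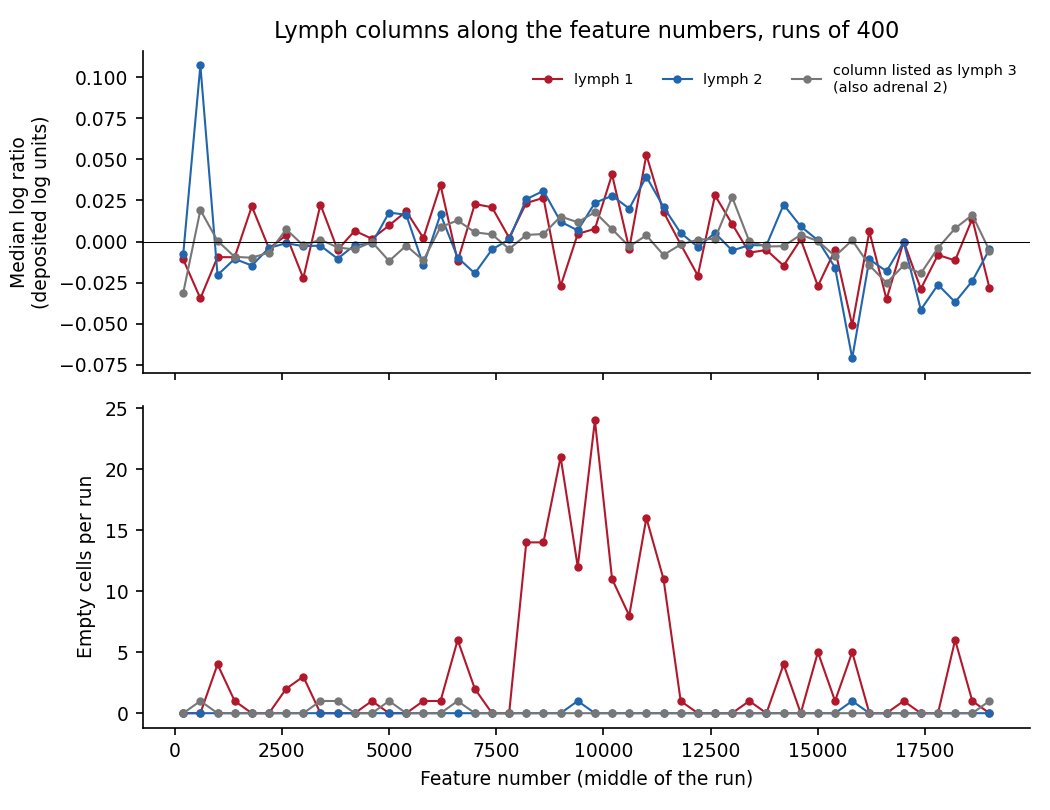
Median log ratio (upper panel, deposited log units) and number of empty cells (lower panel) in runs of 400 feature numbers, for lymph 1, lymph 2 and the column listed as lymph 3. Lymph 2 stands at 0.107 in the run of features 401 to 800, and the empty cells of lymph 1 gather between features 8001 and 11600.

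Genes of immune cells are those whose RNA lymph tissue is rich in, so 14 lists of immune genes were described in full. Together they covered 334 genes and 485 tested features, of which 0 passed with limma after adjustment. At an unadjusted p under 0.05 there were 35 above 0 (7.22%, against 5.20% of all features) and 6 below (1.24%, against 2.52%). Their median over both lymph arrays was -0.00039 against 0.0021 for all features tested. They lay above 0 on both lymph arrays in 149 cases (30.7%) and below 0 on both in 138 (28.5%), where all features had 26.8% and 27.0%. Counts in the single lists are small, and the share of each list at an unadjusted p under 0.05 is given below beside the 7.72% of all features.

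The T cell list had the highest median of the immune lists, 0.049 over 36 features, with 0.061 on lymph 1, 0.056 on lymph 2, -0.0050 on the column listed as lymph 3, and -0.018 and 0.0085 on adrenal 1 and 3. It lay above 0 on both lymph arrays in 15 features (41.7%, against 26.8% of all features) and below on both in 5 (13.9%, against 27.0%). At an unadjusted p under 0.05 there were 4 above 0 and 0 below (11.1%, against 7.72%). CD8A, the co-receptor of cytotoxic T cells, stood at 0.28 and 0.34, with 0.29 and 0.58 on the adrenal arrays. LCK, the kinase that starts T cell receptor signalling, stood at 0.38 and 0.26, with 0.35 and 0.031 on the adrenal arrays. GATA3, a T cell transcription factor gene, stood at 0.29 and 0.23. CD2, an adhesion receptor of T cells, had 2 features, at 0.22 and 0.21 and at 0.20 and 0.11. Of the receptor's CD3 chains, CD3G stood at 0.10 and 0.12 and CD3E at 0.067 and 0.058. The 2 features of CD3D stood at -0.12 and -0.10 and at -0.14 and 0.011. The chains of 1 receptor complex thus lay on both sides of 0. CD5 had 2 features, at -0.084 and 0.13 and at 0.0058 and -0.23. SATB1, the list member below 0 with the smallest p, stood at -0.021 and -0.28.

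The B cell and plasma cell list lay slightly below 0, with a median of -0.038 over 37 features, 7 above 0 on both lymph arrays (18.9%, against 26.8%) and 15 below on both (40.5%, against 27.0%). At an unadjusted p under 0.05 there was 1 feature below 0, that of the ectoenzyme gene CD38 at -0.43 and -0.068, and 0 above (2.70%, against 7.72%). The B cell receptor signalling chains CD79A and CD79B stood at 0.019 and 0.27 and at -0.27 and 0.21, and MS4A1, which codes for CD20, at -0.025 and -0.092. BTK, the kinase downstream of that receptor, had a feature at 0.45 and 0.0094 and another at -0.27 and -0.12. The 11 cytotoxic and NK cell features had 0 at an unadjusted p under 0.05 in either direction, and medians of -0.067 on lymph 1 and 0.075 on lymph 2.

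Antigen presentation genes had list medians close to 0. The class I list had a median of 0.033 over 26 features with 0 at an unadjusted p under 0.05, and its peptide transporter gene TAP2 had a feature at 0.15 and 0.20, with -0.18 and -0.21 on the adrenal arrays. The other TAP2 feature stood at 0.23 and -0.32. The class II list had a median of -0.029 over 20 features. Its 1 feature at an unadjusted p under 0.05 (5%, against 7.72%) was IFI30, the lysosomal thiol reductase of antigen processing, at 0.19 and 0.23. In the macrophage, dendritic cell and granulocyte list, with a median of 0.0071 over 40 features, 4 were above 0 and 2 below at that level (15.0%, against 7.72%). GRN, the progranulin gene, had both its features among them, at 0.31 and 0.26 and at 0.24 and 0.16. On adrenal 1 and 3 the GRN features stood at 0.41 and -0.042 and at 0.17 and 0.10. CEBPA, a myeloid transcription factor gene, stood at 0.49 and 0.22, with 0.10 and 0.37 on the adrenal arrays. CSF1R, the macrophage growth factor receptor gene, had 3 features, at -0.32 and -0.26, at 0.055 and 0.0023, and at 0.044 and -0.31. The first of these and FGR, at -0.29 and -0.21, were the 2 below 0 at that level. On the adrenal arrays that CSF1R feature stood at -0.0096 and -0.071, and FGR at 0.15 and -0.047.

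Among chemokines and stroma, CCL21, the stromal chemokine that draws naive T cells and dendritic cells into lymph nodes, stood at 0.45 on lymph 1 and 0.23 on lymph 2. It stood at -0.052 and -0.13 on the adrenal arrays and -0.018 on the column listed as lymph 3. Both lymph values lay above the others, and in 16.6% of all features tested both lymph arrays lay above both adrenal arrays. The lymph minus adrenal difference of CCL21 was 0.43 ± 0.13 (moderated SE, limma adjusted p = 0.929). CCL21 was the 1 feature of 28 in the chemokine list at an unadjusted p under 0.05 (3.57%, against 7.72%). That list had a median of 0.046. The homing ligand gene CXCL13 stood at -0.0082 and -0.074, and 1 of the 5 features of CXCL12 at 0.28 and 0.14, the highest by mean. The stroma and lymphotoxin list had a median of 0.024 over 34 features. At an unadjusted p under 0.05, 4 of these were above 0 and 0 below (11.8%, against 7.72%). In this list ID2, a transcriptional regulator needed for lymph node formation, had features at 0.24 and 0.22 and at 0.17 and 0.15. The lymphatic marker gene PDPN had 1 feature at 0.35 and 0.19 and another of opposite sign at -0.18 and -0.24. On the adrenal arrays the ID2 features stood at 0.16 and 0.042 and at 0.050 and 0.12. Those of PDPN stood there at 0.25 and 0.37 and at -0.14 and 0.069.

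Of 37 interferon response features 5 were above 0 and 0 below at an unadjusted p under 0.05 (13.5%, against 7.72% of all features), with a list median of -0.013. They were IRF5 at 0.30 and 0.22, IFI6 at 0.62 and 0.14, the receptor chain gene IFNAR1 at 0.36 and 0.14, IRF3 at 0.51 and 0.088, and IRF1 at 0.23 and 0.18. On adrenal 1 and 3, IRF5 stood at -0.022 and -0.13, IFI6 at 0.45 and 0.011, and IFNAR1 at -0.24 and -0.13. IRF3 stood there at 0.13 and -0.10, and IRF1 at 0.26 and 0.23. Other features of IRF5 and IRF1 had lymph means of -0.13 and -0.082. In pattern recognition and NF-kB signalling, 6 features were above 0 and 2 below of 52 (15.4%, against 7.72%), with a median of -0.019. TAB3 and TAB1, adaptors of the kinase TAK1, stood at 0.25 and 0.47 and at 0.35 and 0.22. IRAK4, the kinase next to MYD88, had 3 features, of which 1 stood at 0.49 and 0.11 and 1 at -0.11 and -0.53, both at an unadjusted p under 0.05 and on opposite sides of 0. The third had a lymph mean of 0.061. TLR3, the sensor of double-stranded RNA, stood at -0.16 and -0.28 in 1 feature and -0.16 and 0.056 in the other.

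Of the interleukin and JAK-STAT list, 0 of 43 features reached an unadjusted p under 0.05. In complement, 3 were above 0 and 1 below of 40 (10%, against 7.72%). The central component C3 stood at 0.13 and 0.35 (its other feature at 0.067 and 0.24). The regulator CD46 stood at 0.71 and 0.010 and at 0.34 and 0.17, and MASP1, the 1 below, at -0.45 and -0.087. In leukocyte adhesion, 3 were above 0 and 0 below of 54 (5.56%, against 7.72%). The selectin gene SELP stood at 1.00 and 0.15, so its mean rests on lymph 1, while JAM2, a junctional adhesion molecule, stood at 0.25 and 0.31. The 2 adhesion features with the smallest p below 0 were F11R at -0.15 and -0.20 and ITGB7 at 0.016 and -0.43. In survival and death, 5 were above 0 and 0 below of 55 (9.09%, against 7.72%). The anti-apoptotic gene BCL2 stood at 1.05 and 0.23, again mainly on lymph 1, and its relative BCL2A1 at 0.26 and 0.25. The initiator caspase gene CASP8 stood at 0.44 and 0.19, and the pore-forming BAK1 at 0.23 and 0.22. On the adrenal arrays BCL2 stood at 0.16 and 0.12, BCL2A1 at -0.0060 and -0.055, CASP8 at -0.056 and -0.098, and BAK1 at 0.22 and 0.27. Their second features, where present, had lymph means of -0.10 for CASP8, and -0.12 and 0.13 for BAK1. The 2 survival and death features with the smallest p below 0 were CFLAR at -0.24 and -0.16 and MCL1 at -0.52 and -0.0073.

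The cell cycle list had a median of -0.014 over 105 features, with 3 above 0 and 3 below at an unadjusted p under 0.05 (5.71%, against 7.72%), the chromosomal passenger gene CDCA8 at 0.44 and 0.27 among them. Genes of adrenal cortex and chromaffin cells had a median of -0.027 over 27 features, with 1 above 0 and 0 below (3.70%). The red cell and platelet list had a median of -0.0095, with 4.35% of features at an unadjusted p under 0.05. Adipocyte and muscle had -0.0023 (8.77%), fibroblast and endothelium 0.012 (8.14%), and heat shock and immediate early genes 0.022 (5.71%). Cytosolic ribosomal protein genes had the highest median of all 21 lists, 0.091 over 61 features, with 0.089 on lymph 1, 0.057 on lymph 2 and 0.034 on the column listed as lymph 3. They also had 0.092 and 0.085 on adrenal 1 and 3. Of their features, 12 were above 0 and 3 below at an unadjusted p under 0.05 (24.6%, against 7.72% of all features).

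**Figure D5:**
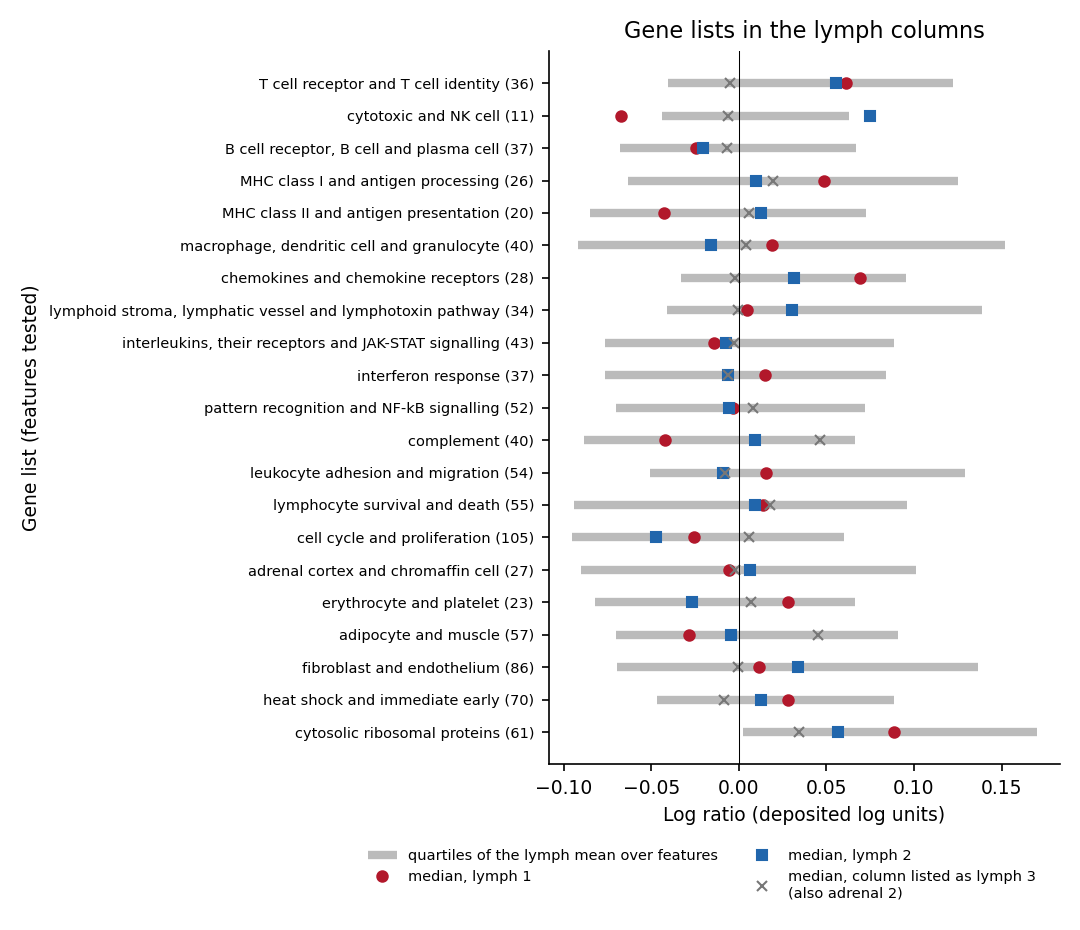
Median log ratio of each gene list, in deposited log units, on lymph 1 (circles), lymph 2 (squares) and the column listed as lymph 3 (crosses), with the quartiles of the lymph mean over the list's tested features as grey bars. The T cell list stands at 0.061 and 0.056 on the lymph arrays. Cytosolic ribosomal protein genes have the highest median on lymph 1 (0.089). On lymph 2 the cytotoxic and NK cell list (0.075) stands above them (0.057). On the column listed as lymph 3, complement (0.047) and adipocyte and muscle (0.045) stand above them (0.034).

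Whether a departure from 0 in lymph differed from that in adrenal gland was tested directly. In that test 0 of 18941 features (0.00%) passed with limma (smallest adjusted p = 0.929), and 899 (4.75%) had p under 0.05 before adjustment. With no filter on empty cells, 0 of 19198 features passed and the smallest adjusted p was 0.0699. It was that of PNMT, the adrenaline-forming enzyme gene of chromaffin cells, with a difference of -1.70 in which adrenal 1 alone stands for the adrenal gland, as adrenal 3 has no value. The 5 named features per direction with the smallest p were taken, 10 in all. Of these, MRPS26, a mitochondrial ribosomal protein gene, stood at -0.37 and -0.18 on lymph and 0.59 and 0.37 on adrenal arrays. MEGF6 stood at -0.33 and -0.30 against 0.12 and 0.28. CTDSP1, a small phosphatase gene, stood at 0.35 and 0.27 against -0.24 and -0.31, and GPS2, a subunit of a nuclear corepressor complex, at 0.31 and 0.30 against -0.22 and -0.30. LYRM2 stood at 0.28 and 0.16 against -0.36 and -0.34, and DPYSL5, a neuronal collapsin response mediator gene, at 0.35 and 0.41 against -0.11 and -0.19. In each of these 6 the 2 tissues lay on opposite sides of 0, which a small p for the difference favours. Among all features tested, both lymph arrays lay above both adrenal arrays in 16.6% and below both in 17.6%. For the 6 features, the values on the column listed as lymph 3 were -0.056, -0.045, -0.20, -0.0010, 0.094 and 0.15. PTGES3, GDAP1L1 and ALDH2 also lay on opposite sides of 0, with lymph means of -0.10, -0.30 and -0.16 and both adrenal values above 0. ARHGAP21 was the tenth. Without 1 array, 5 features passed (without lymph 2), 8 (without adrenal 1), 3 (without adrenal 3) or 0 (without lymph 1), in fits where a tissue rests on a single array.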

How the data were processed

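Bovine complementary DNA arrays of lymph tissue (3) and adrenal gland (3), each hybridised against itself, were taken from 1 table of 6 columns. The values deposited by the authors were treated as log2 ratios; the sources used here name no scanner, dye order, normalisation or log base. The median of every array was set to 0. Lymph 3 and adrenal 2 hold identical values and were left out of the tests, which used 2 arrays per tissue and the 18941 features with 2 values in each tissue. Each lymph mean was tested against 0, and lymph against adrenal, by moderated linear models (limma 3.58.1, run under R 4.3.3, with 2 residual and 7.33 prior degrees of freedom) with Benjamini-Hochberg adjustment at 0.05. The procedure was tested on simulated data with normal noise, at the spread estimated from each array's median absolute deviation. Those data lacked the long tails of lymph 1, so they do not show how the fit handles such tails. Other values were computed with Python 3.11.15, pandas 2.3.3 and scipy 1.17.1. Precision is limited by the number of arrays.

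Names came from the platform annotation: 12630 features have 1 gene symbol, 224 several and 6346 none. Of these, 12497 gene numbers were found in a RefSeq gene table (ARS-UCD2.0), from which no coordinates were taken. Named features are the 10 with the smallest p in each direction of lymph against 0, the 8 with the largest value shared by both lymph arrays, the 12 farthest beyond 1 log unit on an array, the 2 per direction with the smallest p in each immune list, and the 5 per direction for the difference. Not all of these immune list features are described, and more of those left out lay below 0 than above. Further list members at an unadjusted p under 0.05, their other features and marker genes were added after their values were seen. The members and lists were chosen with earlier results of these data known. Alternatives changed the centring, scaling, filter, variance model, gene averaging, arrays used and replicate block.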

Additional observations from a re-analysis of the deposited data

How the results depend on the processing

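Leaving out 1 array gave 0 to 5 features called in lymph against 0 and 0 to 8 in lymph minus adrenal, and moved the numbers at an unadjusted p under 0.05 to 991 to 1949 and 561 to 1518. The 5 features were set by lymph 1, and the 8 by adrenal 3. Averaging features per gene gave 667 and 401 at that level, with fewer items tested by construction. In lymph minus adrenal, all 6 columns as labelled gave 365 and the replicate block on those columns 484; the cause was not tested. With the block 0 features were called. The deviations of same-numbered arrays correlated at 0.0757, -0.185 and -0.168, and as 1 column stands as both adrenal 2 and lymph 3, the pairing could not be judged. Gene averages turned the sign of 6 features, to 0.0095 for NKG7, 0.019 for BTK, 0.0047 for NLRC5, 0.033 for PDPN, 0.065 for IRF5 and 0.014 for IRAK4, by averaging them with features on the other side of 0. Without 1 lymph array, NKG7 (feature 11727) ran from -0.029 to 0.22, IRF5 (16796) from -0.29 to 0.021, ITGB2 from -0.36 to 0.0086 and ITGB7 from -0.43 to 0.016. Leaving out features 8001 to 11600 or 501 to 700, an alternative chosen after seeing the data, kept the counts within 1.5 times. Of the other features named, none passed adjustment in the fits with 2 arrays per tissue. With 2 arrays per tissue, signal over background unknown and no levels, absence of calls does not show that the features lie at 0.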
